A study of Mus musculus with 6 samples.

Results

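The Kruppel-like factors described here are 9 genes of mouse NIH3T3 fibroblasts, Klf2, Klf3, Klf4, Klf5, Klf6, Klf7, Klf9, Klf10 and Klf13. They were followed through every probe set that the platform annotation assigns to 1 of these symbols alone, which gave 33 of the 45101 probe sets on the array. Klf3 and Klf9 had 7 probe sets each, Klf6 had 5, Klf7 had 4, Klf5 and Klf13 had 3, Klf4 had 2, and Klf2 and Klf10 had 1. The set was put together around Klf6 because its signal had been seen to be lower in one group of arrays, so the differences between the groups are given below as a description without a test.

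Total RNA came from 6 samples of 1 clone of NIH3T3, an immortalised fibroblast line, clone M, with lac operator (lacO) DNA inserted at multiple places. In 3 untethered samples the insertion was centrally disposed in the nucleus, and in 3 tethered samples it was at the nuclear periphery. All cells carried the insertions and were grown in DMEM with FCS. The study asked how bringing genomic regions to the inner nuclear membrane affects their transcription. A single clone was used, and the labels state neither where its insertions lie nor which protein tethered them. Separate cultures within a group are not mentioned either, so the spread between arrays may in part be technical.

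Kruppel-like factors are transcription factors with a conserved zinc-finger region at the C-terminal end, through which they bind GC-rich and CACCC-type DNA elements. Their N-terminal parts differ and recruit co-activators such as p300 or co-repressors such as CtBP and Sin3A. In fibroblasts several of them, Klf2, Klf4, Klf6 and Klf10 among them, are known to respond within a short time to serum, growth factors or stress.

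Some members are known to regulate the genes of others through such elements. The 250 bases before the start of Klf6, the gene at the centre of the set, are printed with those of Klf4 and Klf9. The signals of Klf4 and Klf9 correlated at 0.87 on their brightest probe sets, both being highest in the arrays numbered 1. The printed stretches come from RefSeq (build GRCm38.p6), which held a promoter for 7 of the 9 genes. Capitals mark GGGCGG (the GC box), CACCC (the CACCC box) and CCAAT (the CCAAT box), on either strand, and neighbouring or overlapping matches join into 1 run of capitals.
Klf6 (chr13:5861239-5861488, plus strand): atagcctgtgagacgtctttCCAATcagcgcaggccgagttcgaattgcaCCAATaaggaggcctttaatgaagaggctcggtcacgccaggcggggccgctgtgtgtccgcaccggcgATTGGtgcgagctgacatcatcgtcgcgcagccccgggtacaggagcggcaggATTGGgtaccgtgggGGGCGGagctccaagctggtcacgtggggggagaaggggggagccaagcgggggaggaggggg
Klf4 (chr4:55532476-55532725, minus strand): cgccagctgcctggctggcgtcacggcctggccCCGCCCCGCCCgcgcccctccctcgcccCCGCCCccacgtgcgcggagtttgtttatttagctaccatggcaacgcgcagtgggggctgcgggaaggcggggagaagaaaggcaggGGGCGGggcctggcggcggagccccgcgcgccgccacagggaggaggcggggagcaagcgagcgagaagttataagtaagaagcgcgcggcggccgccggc
Klf9 (chr19:23140976-23141225, plus strand): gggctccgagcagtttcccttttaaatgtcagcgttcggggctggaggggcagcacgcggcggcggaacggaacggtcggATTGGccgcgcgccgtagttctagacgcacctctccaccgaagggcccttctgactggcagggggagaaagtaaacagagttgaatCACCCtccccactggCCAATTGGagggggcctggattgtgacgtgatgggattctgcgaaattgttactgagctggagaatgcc
The Klf6 stretch held 1 GGGCGG, 0 CACCC and 4 CCAAT, and the Klf9 stretch held 0, 1 and 3 in the same order. The Klf4 stretch differed from both in holding 4 GGGCGG and 0 CCAAT. Over the 7 promoters, GGGCGG occurred in 6, CACCC in 5 and CCAAT in 3. Of 32851 promoter stretches of the same length, 32.7% held GGGCGG, 52% held CACCC and 33.8% held CCAAT. The CArG box, the element of serum response factor, occurred in 0 of the 7 and in 1.47% of all. The E-box CACGTG occurred once each in Klf6 and Klf4 and in 6.02% of all. The GC content of the 7 stretches ran from 59.2% to 78.4%, and the shares over all promoters were not matched for it. The matches describe the letters of the windows and were not tested for binding.

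Some features of the arrays bear on the members. The median intensity per array ran from 482.4 to 490.9. The arrays numbered 1, one from each group, stood apart from the other 4 on a first principal component with 62.1% of the variance, so each member is also described without them on at least 1 probe set. The control probe set at the 5' end of 18S rRNA ran from 11.15 to 12.16 (log2 intensity) on untethered arrays and from 10.48 to 10.94 on tethered ones, without overlap, and the 5' minus 3' signal of Gapdh ran from -0.060 to 0.076 and from 0.082 to 0.095, also without overlap. The 5' minus 3' signal of actin did overlap, from -0.56 to -0.15 on untethered and from -0.29 to -0.10 on tethered arrays. That of the transferrin receptor overlapped too, from -3.07 to -1.52 and from -2.09 to -1.55. The part of these RNA-quality readings in the values below was not tested. Cell type markers were each read on their brightest probe set alone. Of 10 fibroblast markers, 9 passed the filter on low signal, with Vim at 14.56 in untethered and 14.54 in tethered arrays. Pdgfrb, a receptor for platelet-derived growth factor, differed most at -0.73 (SE 0.24), a larger size than any Klf6 probe set, with 11.16, 11.41 and 11.21 on untethered arrays against 11.09, 10.21 and 10.29 on tethered ones and no overlap. All 9 had a tethered minus untethered difference below 0, with a median of -0.10 (log2), and their summed signals ran from 123.4 to 125.6 on untethered and from 119.6 to 124.8 on tethered arrays. The filter was also passed by 2 of 5 epithelial, 2 of 5 endothelial, 2 of 5 macrophage, 3 of 4 muscle and 1 of 3 adipocyte markers. The epithelial ones were Epcam (11.37 in untethered and 11.43 in tethered arrays) and Cldn4 (10.22 and 10.18). Epcam was read on a probe set ending in _x_at, which can hold probes that cross-hybridise. Cdh1 (6.65 and 6.67), Krt18 (6.88 and 7.03) and Krt8 (8.84 and 8.89) lay below the filter. Summed log2 signals of these marker lists overlapped between the groups except for the endothelial one, which ran from 41.76 to 42.06 on untethered and from 42.08 to 42.34 on tethered arrays. No marker was listed at 0, and the part of these markers in the results was not tested.

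Klf6, which activates genes of the TGF-beta pathway and the cell cycle inhibitor Cdkn1a, was the member with groups that did not overlap. On its brightest probe set, 1427742_a_at, the log2 intensity was 11.52, 11.27 and 11.26 in untethered replicates 1, 2 and 3 and 11.03, 10.79 and 11.15 in tethered replicates 1, 2 and 3. Every tethered array lay below every untethered one, and the gap between the nearest pair, the replicates numbered 3, was narrow. The means were 11.35 ± 0.15 in untethered and 10.99 ± 0.18 in tethered arrays (SD, n = 3 each), a difference of -0.36 (SE 0.12).

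Probe set 1433508_at gave log2 intensities of 11.20, 10.98 and 10.75 on untethered arrays against 10.57, 10.08 and 10.54 on tethered ones, in the order of the replicate numbers. Its groups did not overlap either, and tethered replicate 2 was the lowest array on both probe sets. The difference was -0.58 (SE 0.17).

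A second pair of probe sets gave the same order of the groups. Probe set 1447448_s_at read 10.71, 10.57 and 10.22 on untethered arrays against 9.93, 9.59 and 9.93 on tethered ones (log2 intensity). Probe set 1459718_x_at read 10.42, 10.34 and 10.07 against 9.71, 9.42 and 9.69. Their differences were -0.68 (SE 0.16) and -0.67 (SE 0.13), which are 1.60-fold and 1.59-fold lower signals. The annotation ties both to the same sequence record, and their signals correlated at 0.995 over the 6 arrays, so they are not 2 independent readings of Klf6. The endings also matter, since a probe set ending in _s_at can share probes with other transcripts and one ending in _x_at can hold probes that cross-hybridise.

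The last probe set of Klf6, 1418280_at, went its own way. It read 10.82, 9.69 and 10.26 on untethered arrays against 10.14, 10.05 and 10.33 on tethered ones (log2 intensity). The lowest and the highest of the 6 values were both untethered, so the tethered arrays lay inside the untethered range. The difference was -0.085 with an SE of 0.28. Its lowest value came from untethered replicate 2, which had the second highest Klf6 signal on the other 4 probe sets and the lowest ratio of 5' to 3' signal for the transferrin receptor control (-3.07 on the log2 scale, against -2.81 to -1.52 on the other arrays). Untethered replicate 1 had the next lowest ratio for that control (-2.81), and its Klf6 signal was the highest on those 4 probe sets and on 1418280_at. The part of RNA quality was not tested, either in the differences on those 4 or in the disagreement of 1418280_at with them. Correlations over the 6 arrays, given as a description, ran from 0.92 to 0.995 among the other 4 probe sets and from 0.22 to 0.52 between 1418280_at and each of them.

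**Figure D1:**
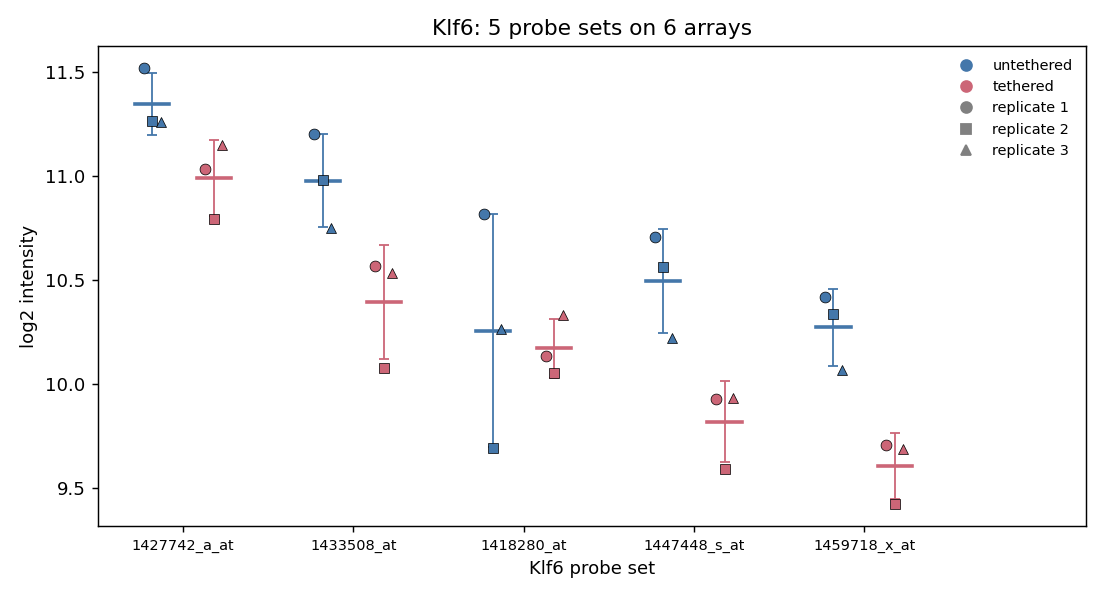
Log2 intensity (vertical axis) of the 5 Klf6 probe sets (horizontal axis) on the 6 arrays. Symbols mark replicate numbers, horizontal lines group means and error bars SD (n = 3 each). The groups do not overlap on 4 probe sets, while on 1418280_at the untethered arrays run from 9.69 to 10.82 and enclose the tethered ones.

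With each array left out in turn, the size of the Klf6 difference changed while its sign could not, since the groups lay apart on those 4 probe sets. It ran from -0.44 to -0.26 on 1427742_a_at, from -0.70 to -0.43 on 1433508_at, from -0.82 to -0.57 on 1447448_s_at and from -0.77 to -0.58 on 1459718_x_at. The smallest size on each came without tethered replicate 2. Without both arrays numbered 1 the 4 stood at -0.29, -0.56, -0.63 and -0.64, in the same order. On 1418280_at the sign turned, to 0.19 without untethered replicate 1 and to 0.21 without both arrays numbered 1. Over the 5 probe sets the mean difference was -0.47.

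Across the array, limma's moderated test with Benjamini-Hochberg adjustment called 0 of 22518 probe sets between tethered and untethered cells (0%), and Klf6 was not called. Without adjustment, 536 had a p under 0.05. Groups did not overlap with the tethered arrays lower in 3.85% of all probe sets tested, and with the tethered arrays higher in 4.3%. Of the 33 member probe sets, 28 passed the filter on low signal and entered this fit, and among these 4 had groups that did not overlap, all of Klf6 and all lower in tethered cells. Klf6 was chosen from this very contrast, so nothing is read from that count. Outside Klf6, the groups overlapped on all 23 tested and all 5 untested member probe sets.

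Klf10, the TGF-beta inducible early gene and a repressor of Smad7, had the largest difference of any member. Its single probe set, 1416029_at, read 11.80, 10.39 and 9.83 in untethered replicates 1, 2 and 3 and 8.99, 9.64 and 10.05 in tethered replicates 1, 2 and 3 (log2 intensity). Untethered replicate 1 stood highest and tethered replicate 1 lowest, while the arrays numbered 3 were close and in the opposite order. The means were 10.67 ± 1.01 and 9.56 ± 0.53 (SD, n = 3 each), with a difference of -1.11 (SE 0.54). It was -0.55 without untethered replicate 1 and -0.27 without both arrays numbered 1, so most of the Klf10 difference rested on those arrays. Untethered replicates 1 and 2, which had the highest Klf10 signals, also had the lowest 5' to 3' ratios of the transferrin receptor (log2 -2.81 and -3.07, against -2.09 to -1.52 elsewhere), and the part of RNA quality was not tested.

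Klf2, a factor best known from endothelium that is also an early serum response gene, had its extremes in the same arrays as Klf10, at a smaller size. It read 11.19, 11.01 and 10.72 on untethered arrays against 10.56, 10.90 and 11.03 on tethered ones (log2 intensity, probe set 1448890_at). Again untethered replicate 1 was highest and tethered replicate 1 lowest, and the groups overlapped. The difference was -0.15 (SE 0.17). It ran from -0.27 without untethered replicate 3 to -0.01 without tethered replicate 1, and it turned to 0.10 without both arrays numbered 1. The correlation of Klf2 with Klf10 over the 6 arrays was 0.88, a description over arrays in which the pair numbered 1 holds both extremes.

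Klf4, a factor of growth arrest and of reprogramming, had means that differed between the groups by less than the standard error. On the brighter probe set, 1417394_at, it read 12.89, 12.58 and 12.24 on untethered arrays against 13.02, 12.19 and 12.43 on tethered ones (log2 intensity). The arrays numbered 1 were the highest of each group. The differences were -0.03 (SE 0.26) on this probe set and -0.04 (SE 0.33) on 1417395_at, and both turned above 0 after quantile normalization (0.039 and 0.016). They were -0.26 and -0.33 without tethered replicate 1, 0.15 and 0.22 without tethered replicate 2, and -0.11 on both without both arrays numbered 1, so the sign depended on single arrays. Both probe sets are tied to the same sequence record and correlated at 0.99.

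Klf9, a factor induced by glucocorticoids and thyroid hormone, had a range over the 6 arrays of 1.21 on the log2 scale for its brightest probe set. This probe set, 1428288_at, read 11.94, 11.77 and 11.21 on untethered arrays against 12.01, 10.92 and 10.80 on tethered ones (log2 intensity). Tethered replicate 1 was the highest array, while the other tethered arrays were the lowest, so the groups overlapped. The difference was -0.40 (SE 0.36). It was -0.78 without tethered replicate 1, -0.18 without tethered replicate 3 and -0.63 without both arrays numbered 1.

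Of the 6 Klf9 probe sets above the filter, 5 had differences between -0.50 and -0.32 and 1436952_at stood at 0.02, with tethered arrays numbered 2 and 3 low on the former. The other four below 0 were 1428289_at (-0.32, SE 0.35), 1456341_a_at (-0.50, SE 0.42), 1436763_a_at (-0.37, SE 0.25) and 1422264_s_at (-0.40, SE 0.44). Without tethered replicate 1 these stood between -0.87 and -0.63, and 1436952_at at -0.06. Correlations among these 6 ran from 0.75 to 0.99. Probe set 1452723_at, below the filter at a mean log2 intensity of 7.73, correlated with them at -0.19 to 0.07 and stood at -0.01 (SE 0.075), although it is tied to the same sequence record as 1428288_at and 1428289_at. Klf4 and Klf9 correlated at 0.87 on their brightest probe sets over the 6 arrays, which share the pair numbered 1 as their high values.

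**Figure D2:**
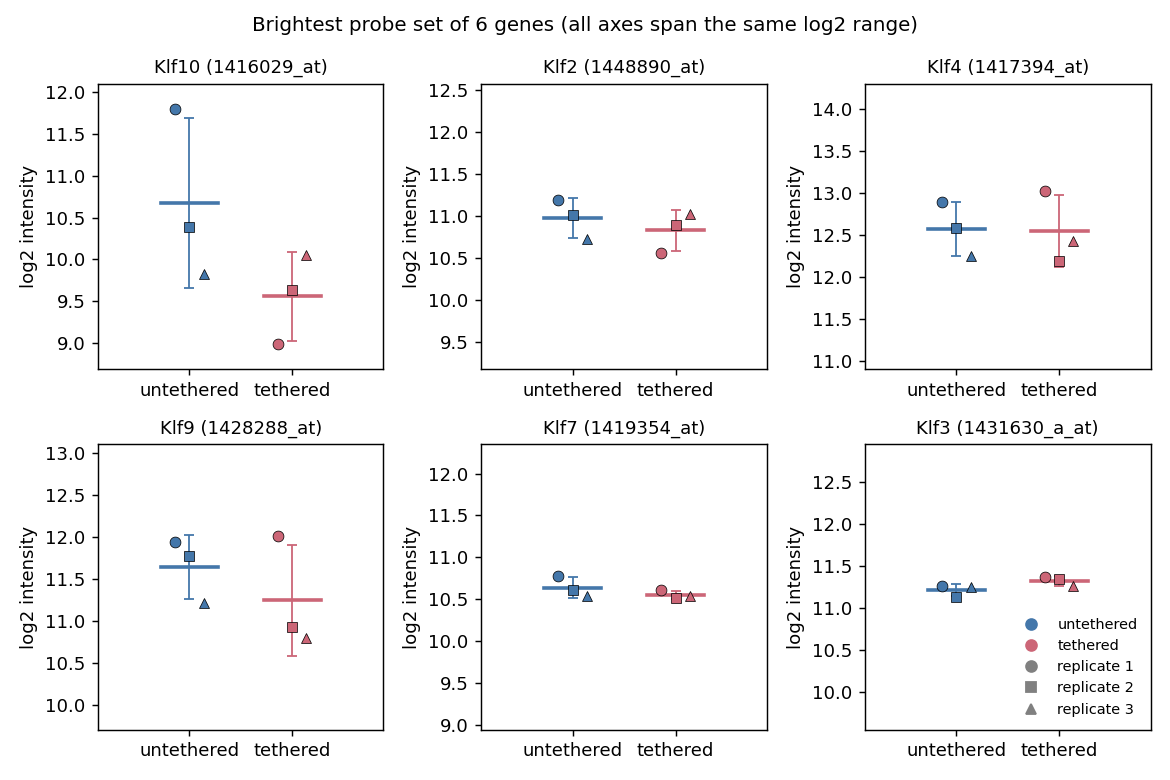
Log2 intensity (vertical axes, all spanning the same range) of the brightest probe set of Klf10, Klf2, Klf4, Klf9, Klf7 and Klf3 by group (horizontal axes). Symbols mark replicate numbers, lines group means and error bars SD (n = 3 each). The groups overlap in every panel, and Klf10 spreads from 8.99 to 11.80 while Klf3 stays between 11.13 and 11.37.

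Klf7, a factor first described for its broad expression and its role in neurons, had 4 probe sets tied to 1 sequence record that did not share a direction. The lowest was 1449439_at, which read 10.06, 9.99 and 9.20 on untethered arrays against 9.65, 9.18 and 9.46 on tethered ones (log2 intensity). Untethered replicates 1 and 2 lay above all tethered arrays and untethered replicate 3 did not. Its difference was -0.32 (SE 0.26). The others stood at -0.16 (SE 0.19) on 1419355_at, -0.08 (SE 0.083) on 1419354_at and 0.09 (SE 0.18) on 1419356_at. Single arrays moved these values widely. With 1 array left out, the difference ran from -0.60 (without untethered replicate 3) to -0.16 (without untethered replicate 1) on 1449439_at and, without the same arrays, from -0.35 to -0.01 on 1419355_at and from -0.14 to -0.02 on 1419354_at. On 1419356_at it ran from -0.05 without untethered replicate 2 to 0.29 without untethered replicate 1. Without both arrays numbered 1 the differences were -0.27 on 1449439_at, -0.10 on 1419355_at, -0.04 on 1419354_at and 0.30 on 1419356_at. Probe set 1419356_at had its lowest value, 9.41, in untethered replicate 2, the array that was also lowest for Klf6 on 1418280_at.

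Klf3, a repressor that works through CtBP, was the member whose probe sets all stood above 0. All 7, of which 5 passed the filter, had differences between 0.07 and 0.16 on the log2 scale, and the groups overlapped on each. The brightest, 1431630_a_at, read 11.26, 11.13 and 11.24 on untethered arrays against 11.37, 11.35 and 11.25 on tethered ones. Only untethered replicate 1 lay above a tethered array, tethered replicate 3, and by little. The difference was 0.11 (SE 0.071).

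The further Klf3 differences were 0.07 (SE 0.15) on 1454666_at, 0.13 (SE 0.098) on 1429360_at, 0.10 (SE 0.072) on 1441200_at and 0.16 (SE 0.10) on 1421604_a_at. Below the filter, 1458487_at stood at 0.11 (SE 0.065) and 1442920_at at 0.14 (SE 0.11). The 7 stayed above 0 after quantile normalization (0.11 to 0.18) and after centring the arrays on their medians. With 1 array left out, 1454666_at alone turned, to -0.10 without tethered replicate 1, and it also turned without both arrays numbered 1 (-0.05). Their correlations with one another over the 6 arrays ran from -0.22 to 0.82, so the probe sets shared a sign without sharing a profile.

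Klf5, a promoter of proliferation, and Klf13, an activator of Ccl5 in lymphocytes, had differences near 0. Klf5 stood at -0.01 (SE 0.085) on 1451021_a_at, its only probe set above the filter, with values from 10.63 to 10.83 on the 6 arrays. The dim probe sets 1451739_at and 1430255_at stood at -0.07 (SE 0.072) and -0.05 (SE 0.12). Klf13 stood at -0.05 (SE 0.098) on 1436316_at, 0.02 (SE 0.078) on 1456030_at and -0.14 (SE 0.10) on 1432543_a_at. Its brightest probe set, 1436316_at, was highest in untethered replicate 2 (11.03) and lay between 10.73 and 10.80 on the other 5 arrays, and its difference turned to 0.05 without that array. On 1456030_at the difference ran from -0.02 without untethered replicate 2 to 0.07 without tethered replicate 1, and on 1432543_a_at it was -0.05 without untethered replicate 2. Without both arrays numbered 1, Klf5 stood at -0.09 on 1451021_a_at and Klf13 at -0.09 on 1436316_at, 0.11 on 1456030_at and -0.19 on 1432543_a_at.

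**Figure D3:**
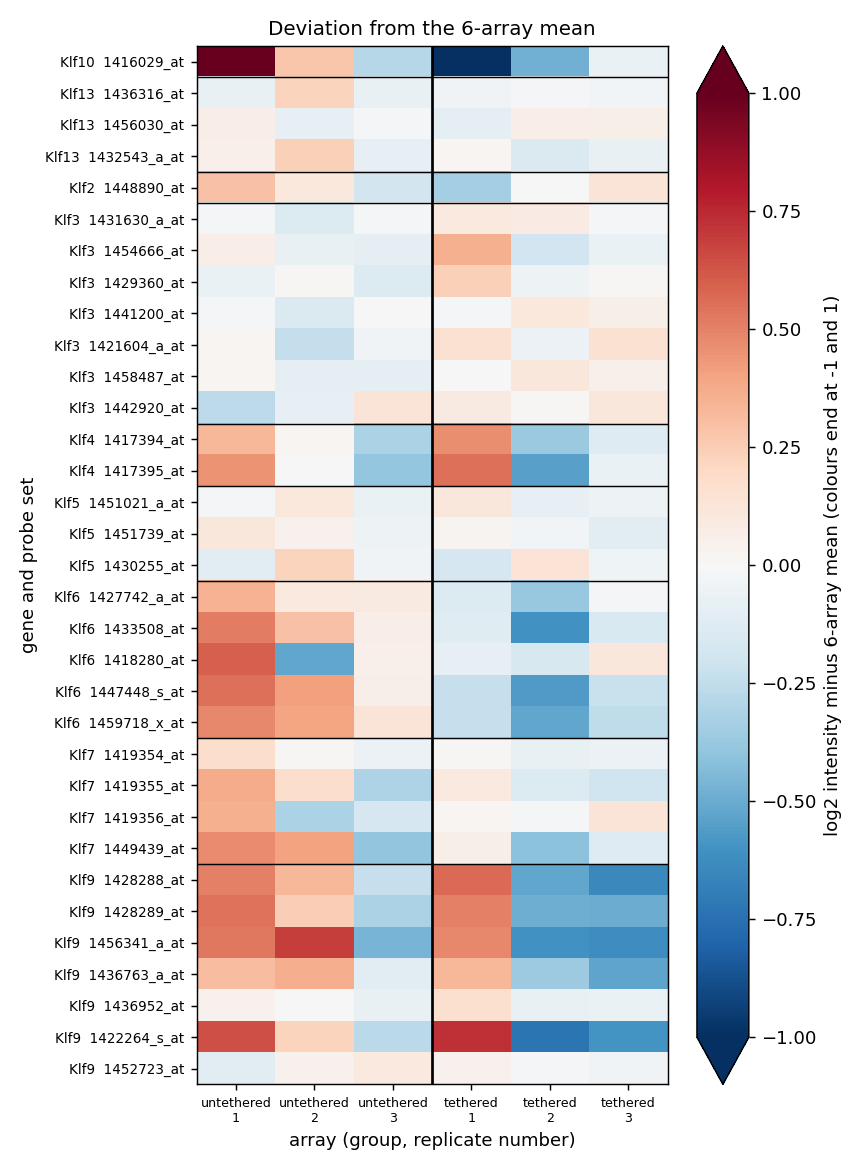
Log2 intensity of each of the 33 member probe sets (rows, by gene) on each array (columns), minus the probe set's mean over the 6 arrays, as colour. Klf6 is above its mean in untethered and below in tethered arrays on 4 rows, Klf4 and the Klf9 rows other than 1452723_at are above their means in both arrays numbered 1, and Klf10 has the strongest colours, in opposite directions in the arrays numbered 1.

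Taking the 28 tested member probe sets as a list, 20 had differences below 0, or 71.4%, beside 55.9% of all 22518 probe sets tested, and the median was -0.11 beside -0.016. Without Klf6 the count was 15 of 23 with a median of -0.05. The 28 are not 28 readings, since several belong to 1 gene or 1 sequence record, and the direction of Klf6 was fixed by its choice. The count was 17 of 28 after quantile normalization, where the median of all probe sets moved to 0.0092, 17 of 28 without untethered replicate 1 and 20 of 28 without both arrays numbered 1. For 16 of the 33 probe sets the difference was smaller than its own standard error, in the fit without the replicate number as a block.

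**Figure D4:**
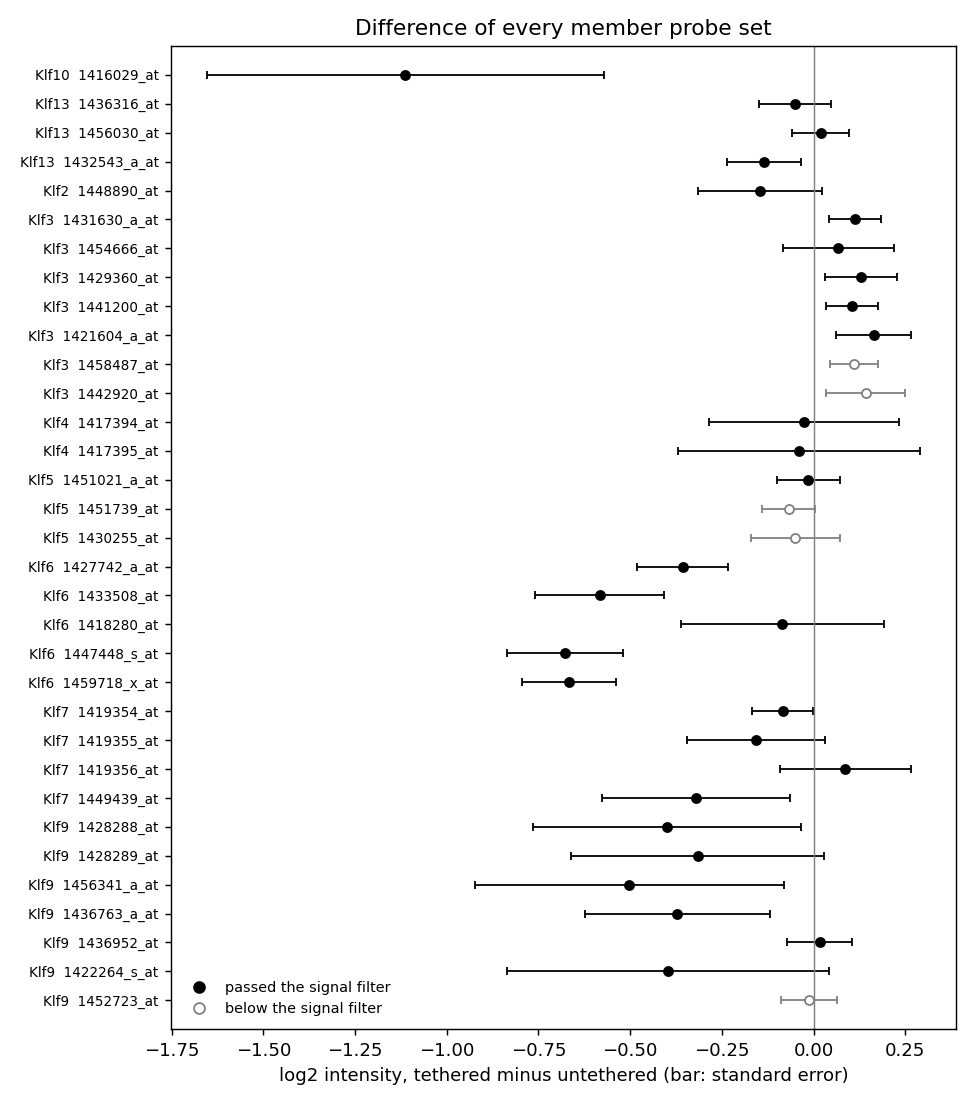
Difference in log2 intensity, tethered minus untethered (horizontal axis), of each of the 33 member probe sets (vertical axis). Points are differences of group means (n = 3 each), bars are standard errors from the fit over all probe sets, and open points lie below the signal filter. Klf10 has the lowest value (-1.11) and the widest bar, 4 Klf6 points lie between -0.68 and -0.36, and all 7 Klf3 points lie above 0.

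The replicate number is shared between the groups, and its effect is balanced against the contrast from which the genes were chosen. A limma F-test of the number, with the group as a covariate and Benjamini-Hochberg adjustment, called 1161 of 22518 probe sets (5.16%). It called 0 of the 28 tested member probe sets, and the lowest adjusted p among them was 0.094, for Klf9 on 1428289_at. At an unadjusted p under 0.05 there were 7 of 28 (25%), 4 of Klf9, 2 of Klf4 and 1 of Klf7, beside 22.6% of all probe sets, so the members' share was near that of the array as a whole. On 1428289_at the mean of the arrays numbered 1 was 0.79 above that of the other 4, and on 1417394_at of Klf4 it was 0.60 above. The smallest adjusted p of this F-test on the 5 Klf6 probe sets was 0.39, with the arrays numbered 1 higher by 0.16 to 0.39. The test fits a number effect common to both groups, so it does not capture arrays numbered 1 that deviate in opposite directions. Relative to the other arrays of its group, untethered replicate 1 stood at 1.69 for Klf10 and 0.33 for Klf2. Tethered replicate 1 stood at -0.85 and -0.40.

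Among other genes, the profile most like that of Klf6 over the 6 arrays was sought by Pearson correlation with 1427742_a_at, over 19313 probe sets with 1 symbol. The 5 highest were Med12, a Mediator subunit (0.986), Cdc42ep3, a Cdc42 effector (0.982), Nfkb2, an NF-kappaB subunit (0.979), Fam172a (0.978) and Zfp541 (0.965). Their differences between the groups (log2) were smaller in size than that of 1427742_a_at, at -0.18 (SE 0.069), -0.30 (SE 0.12), -0.21 (SE 0.089), -0.12 (SE 0.063) and -0.25 (SE 0.10). The lowest correlations were those of Usp7, a deubiquitinase (-0.992), and Asap2 (-0.98). With 6 arrays, 70 probe sets correlated above 0.9 and 59 below -0.9, so such ranks describe these arrays and carry no test.

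Genes that act with Kruppel-like factors were listed by role. Each was read on its brightest probe set alone, so overlap of its groups, or its absence, rests on 1 probe set. Limma with Benjamini-Hochberg adjustment called 0 of the 58 tested, with 4 at an unadjusted p under 0.05, which 2.38% of all probe sets tested reached. Of 5 tested other KLF genes, 1 was below 0, with a median of 0.0075, and Klf11, the nearest relative of Klf10, stood at 0.04 (SE 0.076). Klf14 read 9.80, 9.76 and 9.83 on untethered arrays against 9.86, 9.89 and 9.84 on tethered ones, a difference of 0.07 (SE 0.059). Its groups did not overlap, with the tethered arrays higher by little. Of 5 tested Sp factors, which share the zinc-finger region and bind the GC box, 4 were below 0 with a median of -0.07.

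Sp1 read 11.42, 11.58 and 11.38 on untethered arrays against 10.93, 11.10 and 11.20 on tethered ones, a difference of -0.38 (SE 0.098). Its groups did not overlap, as with 4 probe sets of Klf6, and Sp7 stood at 0.11 (SE 0.11). Among 15 upstream regulators 9 were below 0 with a median of -0.07. The glucocorticoid receptor gene Nr3c1 stood at -0.31 (SE 0.067) and Mrtfb, a co-activator of serum response factor, at -0.29 (SE 0.090), both with groups that did not overlap. Srf itself stood at 0.12 (SE 0.21). The genes named from these lists were those with the smallest p, apart from Srf, which was added afterwards, so their size is partly a result of that choice.

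Among 13 cofactors 10 were below 0 with a median of -0.07. The acetyltransferase genes Ep300 and Crebbp stood at -0.33 (SE 0.12) and -0.15 (SE 0.14), and the groups did not overlap for Ep300. Of 7 tested ubiquitin ligases 4 were below 0 with a median of -0.0077, and Smurf2 stood at 0.22 (SE 0.11) and Btrc at -0.12 (SE 0.094). Of 13 tested target genes of the family 8 were below 0 with a median of -0.08. Cdkn1a, a target of Klf6 and Klf4, read 12.41, 12.41 and 12.13 on untethered arrays against 12.20, 12.06 and 12.16 on tethered ones, with a difference of -0.18 (SE 0.098) and groups that overlapped. Igf1r stood at -0.08 (SE 0.072). These medians stand beside -0.016 over all probe sets tested, of which 55.9% were below 0. Over the upper quartile of mean signal the median was -0.032, with 7015 of 11259 below 0. As the lists took the brightest probe set of each gene, neither baseline is like for like.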

How the data were processed

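The labels give total RNA as the material of the 6 samples, biotin as the label and Affymetrix arrays as the platform. The deposited values are linear intensities, 1 per probe set and array, which the authors had brought to a common scale; how probes were summarised and scaled is not stated in the labels. No detection calls were used, and precision is limited by the 6 arrays. A floor of 16 was applied before taking log2. Of 45101 probe sets, 64 controls were left out. Probe sets with a mean log2 intensity above the median of the rest (22518) were fitted with limma 3.58.1 in R 4.3.3, without covariates, and p-values were adjusted by Benjamini-Hochberg and called under 0.05, two-sided. The procedure was also run on simulated data, with noise drawn independently for each probe set and array. For the group contrast these data lacked the shared component that set the arrays numbered 1 apart. Nothing is therefore read from them about the calls. Standard errors of probe sets below the filter came from a fit of all probe sets. All probe sets of the members were named, with the 5 genes most and the 2 least correlated with the brightest Klf6 probe set and the 2 members of smallest p of each list of related genes. For these lists and for the markers, only the brightest probe set of each gene was used. Members and lists were chosen with earlier results of these data known. Symbols came from the platform annotation, updated by gene identifier to the RefSeq table of GRCm38.p6, which changed none of the 33 member names. Alternatives covered the replicate number as a block, scaling, floor, filter, probe set and left-out arrays.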

Additional observations from a re-analysis of the deposited data

How the results depend on the processing

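Limma called 0 probe sets between tethered and untethered cells under every alternative, with the replicate block, the scalings, floors and filters, an unmoderated model and each array left out among them. At an unadjusted p under 0.05 the count was 536 in the main setting, 1232 with the replicate block and from 237 to 1488 with 1 array left out. The correlations of deviations between arrays of the same number were 0.71, 0.075 and 0.71 for numbers 1, 2 and 3. Between numbers 1 and 3 they were -0.77 and -0.67, so arrays of the same number shared deviations across the groups for numbers 1 and 3. Untethered replicate 2 correlated best with tethered replicate 3 (0.22). The labels do not state whether the numbers pair the samples, so the main fit was left without a block, and a pairing is not excluded. The block left every member difference as it was, since the design is balanced, while the standard errors changed. They fell from 0.36 to 0.18 on Klf9 1428288_at and from 0.26 to 0.13 on Klf4 1417394_at. They rose from 0.54 to 0.57 on Klf10 and from 0.17 to 0.18 on Klf2. The standard errors printed elsewhere come from fits without the block. The F-test of the replicate number called 1161 probe sets, and 645 without the filter on low signal.

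The Klf6 difference depended on the probe set, at -0.36 on 1427742_a_at, -0.58 on 1433508_at, -0.68 on 1447448_s_at, -0.67 on 1459718_x_at and -0.085 on 1418280_at; the cause was not tested. Under the other settings it moved on 1427742_a_at by less than the pooled SD between replicates (0.17). Most of these settings could not have given a larger move. The replicate block, the floors and the filters left the difference at -0.36. Leaving out 1 of 3 arrays in a group cannot move it by that SD. Scaling could have, and gave -0.32 after quantile normalization and -0.35 after centring the arrays on their medians. So could the omission of both arrays numbered 1, which gave -0.29. Of 448 alternative values of the other member probe sets, 443 moved by less than the pooled SD of the probe set itself. That SD is wider than that of Klf6 for several members, Klf10 among them. The block, the floors, the filters and single left-out arrays could not have moved these values by more either. Those settings make up most of the 448. The count is therefore not a measure of stability, and Klf10 went from -1.11 to -0.55 without untethered replicate 1 while counted as unmoved. The sign turned for 11 of the 33 with 1 array left out, for 3 under another scaling and for 4 without both arrays numbered 1, and 21 kept it throughout these.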
